A study of Mus musculus with 6 samples.

Results

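Selectin ligands and homing molecules were described here by 5 genes, taken by their symbols from the deposited table of read counts: Selplg, Cd44, Spn, Fut7 and Podxl. All 5 were among the 33924 gene rows of that table. The libraries came from mouse leukaemias driven by the fusion oncogene MLL-AF9, which a retrovirus had brought into one of 2 kinds of marrow cell: LSK cells, among which the stem cells are found, and granulocyte-macrophage progenitors (GMP). Both groups shared the oncogene and the further handling: transplantation of GFP+ cells with wild-type support marrow into lethally irradiated C57BL/6 mice, harvest from the marrow of moribund animals, and culture with SCF, IL-3 and IL-6. No library was labelled as treated with a drug. Each group held 3 libraries, named here by the numbers in their titles: LSK 44, LSK 45 and LSK 46, and GMP 5, GMP 11 and GMP 19. The labels give neither the mouse or transduction behind each library nor an animal's age, so the spread behind each p-value is that of these libraries and may be technical. Where 3 values per group are given in a row, they stand in the order just given.

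Selectins are lectins that let blood cells tether and roll: E- and P-selectin, for example, act on endothelium and platelets. Their ligands are mucin-like glycoproteins that bind only once enzymes in the Golgi have built a fucosylated, sialylated glycan on them, often on a core 2 O-glycan. In bone marrow this system serves the entry of blood stem cells and leukaemia cells from the circulation and their contact with marrow vessels. Selplg encodes PSGL-1, the main P-selectin ligand of leukocytes. Cd44 encodes the hyaluronan receptor, which also carries E-selectin ligands, and Spn encodes CD43, the most prominent sialomucin of leukocytes. Fut7 encodes the fucosyltransferase that completes the sialyl Lewis x glycan, and Podxl encodes podocalyxin, a sialomucin related to CD34 that is found on stem cells, megakaryocytes, platelets and endothelium.

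Total counts ran from 16640929 to 33885428 per library, and 13406 genes had enough counts to be tested. The labelled myeloid nature was checked on 10 myeloid progenitor markers, of which 9 were in the table. All 9 exceeded 1 CPM (counts scaled to library size) in at least 1 library, and their summed level was 3349 to 4865 CPM in the LSK-derived libraries and 3380 to 5974 CPM in the others. Within the GMP-derived group, Mpo, the myeloperoxidase gene, was at 13.8 CPM in GMP 5, against 316 CPM in GMP 11 and 500.3 CPM in GMP 19. Of the T and NK cell markers 8 of 10 stayed under 1 CPM in all libraries, of the stroma markers 7 of 10, of the endothelial markers 7 of 10 and of the B cell markers 5 of 8. Of these markers, Cd3e, Ms4a1, Pax5, Col1a2 and Cldn5 were among those with 0 counts in all libraries. Those that reached 1 CPM were Lck, Klrb1c, Col1a1, Pdgfrb, Lepr, Pecam1, Sele, Egfl7, Cd79b, Vpreb1 and Blnk. Pdgfrb, of the stroma list, was at 13.95 to 36.4 CPM in the GMP-derived and 0.54 to 4.87 CPM in the LSK-derived libraries. Cd79b, of the B cell list, was at 3.36 to 7.51 and 14.3 to 21.7 CPM in the same order, and Lck, of the T and NK cell list, at 5.85 to 7.42 CPM in all libraries. Because the samples were bulk RNA, fewer cells with a transcript and less transcript per cell cannot be told apart in any value that follows.

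The ligand scaffold genes Selplg, Cd44 and Spn were higher in the LSK-derived leukaemias, the fucosyltransferase gene Fut7 did not pass the test, and Podxl was split within the LSK-derived group. Of the 4 members with enough counts to be tested, 3 were called, all higher in the LSK-derived libraries. Over all tested genes 25.7% were called in either direction, 11.8% with the LSK-derived group higher and 13.9% with the GMP-derived group higher. Genes were called where edgeR's quasi-likelihood test gave, after Benjamini-Hochberg adjustment over all tested genes, a p under 0.05. The median log2 fold change, LSK-derived minus GMP-derived, was 0.48 over the 4 tested members and 0.01 over all tested genes.

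**Figure D1:**
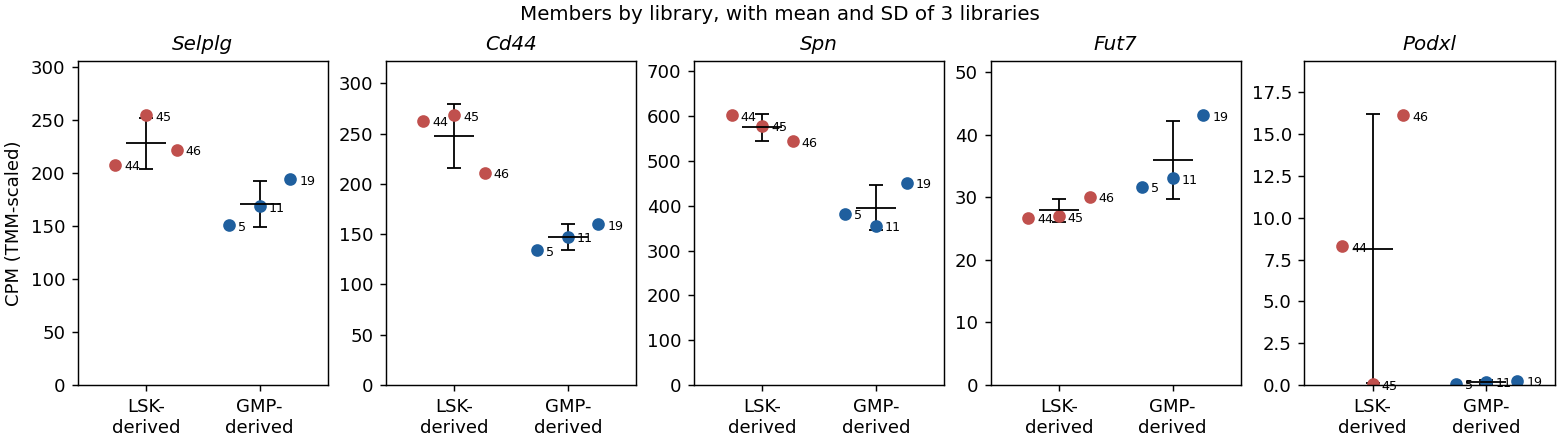
TMM-scaled CPM (y axis, from 0, a separate scale per gene) of the 5 members in each library, with the library number beside each point and the mean and SD of 3 libraries as bars. For Selplg, Cd44 and Spn every LSK-derived library lies above every GMP-derived one, for Fut7 every one lies below, and for Podxl LSK 45 lies at 0.0393 CPM beside 8.29 and 16.1 CPM in LSK 44 and LSK 46.

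Cd44 showed the greatest difference among the tested members. It was at 263 CPM in LSK 44, 268 CPM in LSK 45 and 211 CPM in LSK 46, and at 134 CPM in GMP 5, 147 CPM in GMP 11 and 160 CPM in GMP 19. The lowest LSK-derived library was thus above the highest GMP-derived one. The means were 247 ± 31.6 CPM (SD, n = 3) and 147 ± 12.9 CPM (SD, n = 3), a 1.68-fold difference. The log2 fold change was 0.75 with an approximate standard error (SE) of 0.11 and a 95% interval from 0.48 to 1.02, and the adjusted p was 0.00515. Counts of the gene row add up all CD44 isoforms, so the standard form and the forms with variant exons were not separated.

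Spn, the highest member per transcript length, differed by less. Its level was 602 CPM in LSK 44, 578 CPM in LSK 45 and 544 CPM in LSK 46, and 381 CPM in GMP 5, 356 CPM in GMP 11 and 451 CPM in GMP 19. The groups did not overlap, and the LSK-derived libraries lay close together, with a coefficient of variation of 5.10% against 12.4% in the other group. The means of 575 ± 29.3 CPM (SD, n = 3) and 396 ± 49.2 CPM (SD, n = 3) differed 1.45-fold (log2 fold change 0.54 ± 0.10 (SE), interval 0.30 to 0.77, adjusted p = 0.0103). Cd44 and Spn kept their calls in each fit that left out 1 library, with an adjusted p of at most 0.0266 for Cd44 and 0.0456 for Spn, both without LSK 44.

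Selplg was called by a narrow margin. It was at 208 CPM in LSK 44, 255 CPM in LSK 45 and 222 CPM in LSK 46, and at 151 CPM in GMP 5, 169 CPM in GMP 11 and 194 CPM in GMP 19. The groups did not overlap, though LSK 44 and GMP 19 were only a little apart. The means were 228 ± 24.2 CPM (SD, n = 3) and 171 ± 21.7 CPM (SD, n = 3), a 1.33-fold difference (log2 fold change 0.42 ± 0.12 (SE), interval 0.14 to 0.69, adjusted p = 0.0407). The call was lost without LSK 44 (adjusted p = 0.0637), LSK 45 (0.0957), LSK 46 (0.0976), GMP 5 (0.0883) or GMP 11 (0.104), and held without GMP 19 (0.0280). Selplg was highest of its group in LSK 45 and lowest in GMP 5. The summed level of the 10 monocyte and macrophage markers was also highest of its group in LSK 45 (2167 CPM, against 1225 CPM in LSK 44 and 887 CPM in LSK 46) and lowest in GMP 5 (600.5 CPM, against 1783 and 1662 CPM in GMP 11 and GMP 19). The remaining libraries of each group stood in the reverse order of Selplg. Most of the sum was Ly6c2, Ccr2 and F13a1, each also highest of its group in LSK 45 and lowest in GMP 5. Emr1 was instead highest of its group in GMP 5 (159 CPM, against 30.0 CPM in GMP 11 and 79.1 CPM in GMP 19), and Cd68 in LSK 46 (69.6 CPM). None of these 10 markers had 0 counts in all libraries. The match was not particular to this list. The mature neutrophil sum was likewise highest of its group in LSK 45 (179 CPM) and lowest in GMP 5 (18.1 CPM). It followed the order of Selplg among the GMP-derived libraries but not among the LSK-derived ones. The myeloid progenitor sum was also lowest of its group in GMP 5 (3380 CPM), but highest in LSK 44 (4865 CPM). The part of any of these cells in the Selplg values was not tested.

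**Figure D2:**
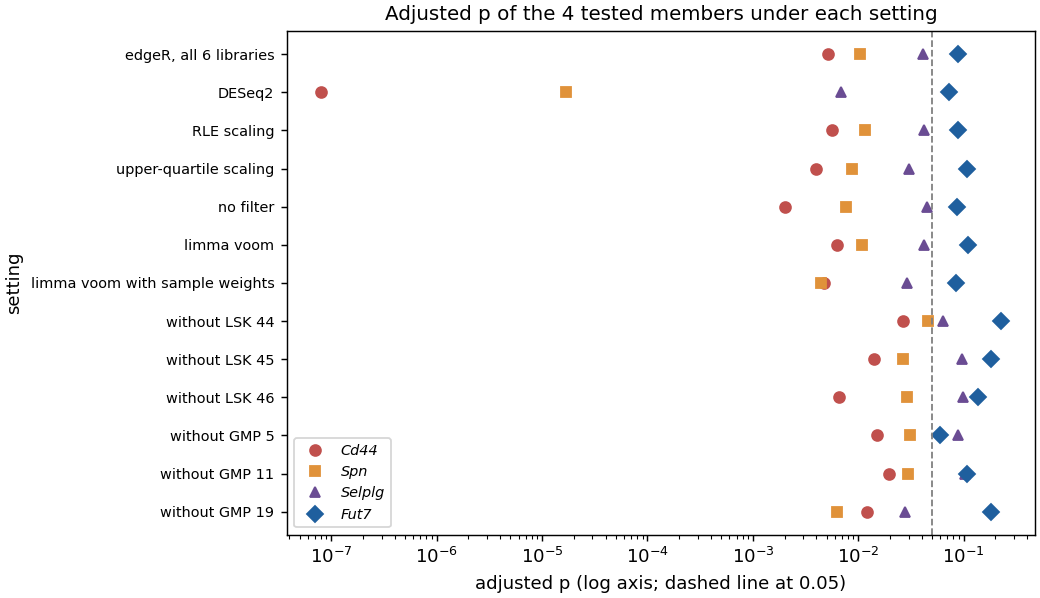
Adjusted p (x axis, log scale, dashed line at 0.05) of the 4 tested members for edgeR with all 6 libraries and for each other setting (y axis). Cd44 and Spn stay left of the line in every row shown, Fut7 stays right of it, and Selplg crosses it in 5 of the 6 rows that leave out a library.

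Fut7 pointed the other way, without passing the test. It was at 26.7 CPM in LSK 44, 26.9 CPM in LSK 45 and 30.1 CPM in LSK 46, and at 31.6 CPM in GMP 5, 33.0 CPM in GMP 11 and 43.1 CPM in GMP 19. All GMP-derived values were above all LSK-derived ones, but LSK 46 and GMP 5 nearly met and GMP 19 stood above the rest. The means were 27.9 ± 1.88 CPM (SD, n = 3) and 35.9 ± 6.26 CPM (SD, n = 3), and the log2 fold change was -0.36 ± 0.13 (SE; interval -0.68 to -0.05, adjusted p = 0.0884). Without GMP 19 the log2 fold change was -0.21 (adjusted p = 0.180). The 10 mature neutrophil markers summed to 18.1, 82.1 and 568 CPM across the GMP-derived libraries, in the order of Fut7, and to 118, 179 and 48.3 CPM across the LSK-derived ones, in another order. The sums were led by different genes. Most of the LSK-derived sum was Mmp8 (101, 173 and 40.9 CPM), which was at 1.76, 18.3 and 29.8 CPM across the GMP-derived libraries. Most of the GMP-derived sum was S100a8, S100a9 and Ngp. None of the 10 markers had 0 counts in all libraries, and 1 stayed under 1 CPM. The part of such cells in the Fut7 values was not tested. The groups did not overlap for 4 of the 5 members, Selplg, Cd44, Spn and Fut7, and for 45.4% of all tested genes (22.5% higher in LSK-derived, 22.8% higher in GMP-derived).

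Both directions together set the balance of scaffold to enzyme in a library. There were 7.40 to 9.47 counts of Selplg per count of Fut7 in the LSK-derived libraries and 4.51 to 5.11 in the GMP-derived ones. With Selplg higher and Fut7 lower in each LSK-derived library, this ratio had to differ, and it adds no evidence of its own. The ratio of Cd44 to Selplg, both called, was 0.949 to 1.27 in the LSK-derived libraries and 0.822 to 0.886 in the GMP-derived ones. It was chosen with the single values known and was not tested. Ratios within a library do not depend on how libraries were scaled.

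Levels of different genes were compared per length of the longest coding transcript. The order was Spn, Selplg, Cd44, Fut7 and Podxl in each of the 6 libraries. Spn was at 154 CPM per kb in the LSK-derived mean and 106 CPM per kb in the GMP-derived mean, Selplg at 123 and 92.4, Cd44 at 44.1 and 26.2, Fut7 at 13.4 and 17.3, and Podxl at 1.51 and 0.0343 CPM per kb. Spn and Selplg did not overlap among LSK-derived libraries (145 to 161 against 112 to 138 CPM per kb) but did among GMP-derived ones (95.1 to 121 against 81.4 to 105 CPM per kb). With the shortest coding transcript of each gene the order of the means was the same: Spn at 963 CPM per kb in the LSK-derived mean and 663 in the GMP-derived mean, Selplg at 636 and 477, Cd44 at 190 and 113, and Fut7 at 41.3 and 53.1. Podxl has 1 coding transcript. Lengths of Cd44 run from 1.30 to 5.61 kb, so its level per kb is uncertain by as much.

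Podxl was expressed in 2 of the 3 LSK-derived libraries and near 0 in the other libraries. It had 137 counts in LSK 44, 1 count in LSK 45 and 387 counts in LSK 46, and 2, 7 and 9 counts in GMP 5, GMP 11 and GMP 19. As CPM these were 8.29 in LSK 44 (exact 95% counting interval 6.96 to 9.80), 0.0393 in LSK 45 (0.000994 to 0.219) and 16.1 in LSK 46 (14.6 to 17.8). In GMP 5, GMP 11 and GMP 19 it was at 0.0820 CPM (0.00993 to 0.296), 0.208 CPM (0.0835 to 0.428) and 0.264 CPM (0.121 to 0.501). The interval of LSK 45 thus met those of all GMP-derived libraries, and the groups overlapped. These intervals cover counting error only.

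With 3 LSK-derived values of 8.15 ± 8.04 CPM (SD, n = 3), Podxl did not meet the minimum of the filter on low counts and was not tested there. With no such filter its fitted log2 fold change was 5.36 with an adjusted p of 0.160 (unadjusted p = 0.0427). Without LSK 45 it met the filter and was called (log2 fold change 5.96, adjusted p = 0.00160), and without GMP 5, GMP 11 or GMP 19 it met the filter and was not called (adjusted p between 0.110 and 0.151). Leaving out LSK 44 or LSK 46 put it under the filter again. The log2 ratio of mean CPM, taken with no test, was 5.46 over all libraries and 4.50 without LSK 46.

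The summed platelet and megakaryocyte markers and the summed erythroid markers stood in the order of Podxl within the LSK-derived group, as did 8 of 12 and 6 of 8 of their single genes. The summed level of the 12 platelet and megakaryocyte markers was 43.4 CPM in LSK 44, 17.3 CPM in LSK 45 and 99.6 CPM in LSK 46, and 3.77 to 13.8 CPM in the GMP-derived libraries. Most of it was Itga2b, the platelet integrin gene, at 28.7 CPM in LSK 44, 9.30 CPM in LSK 45 and 73.1 CPM in LSK 46. Pf4, a platelet chemokine gene, was at 1.81, 0.235 and 2.87 CPM across the LSK-derived libraries. None of the 12 was at 0 in all libraries, and 4 stayed under 1 CPM everywhere. In the LSK-derived group 2 were called as higher, as were 11.8% of all tested genes. Of these 2, Selp, the P-selectin gene, met the low-count filter only through that group. It lost its call in all 6 fits without a library. The erythroid markers, 8 of 9 of them in the table, summed to 36.4 CPM in LSK 44, 15.2 CPM in LSK 45 and 110 CPM in LSK 46, and to 1.31 to 1.84 CPM in the GMP-derived libraries, most of it from the globin gene Hbb-b2. The genes in another order were Vwf, Selp, Treml1 and Clec1b, and, of the erythroid list, Alas2 and Hba-a2. The endothelial sum was 233 CPM in LSK 44, 337 CPM in LSK 45 and 205 CPM in LSK 46, nearly all of it Pecam1 (219, 325 and 189 CPM), with Emcn and Cldn5 at 0. Of the 10 endothelial genes, 2 stood in the order of Podxl, Tie1 and Egfl7, the latter at 11.8, 10.6 and 14.8 CPM across the LSK-derived libraries. The part of such cells, or of such genes within the leukaemia cells, in the Podxl values was not tested.

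Genes of the most similar pattern were sought by the root mean square difference between log2(CPM + 0.5) profiles over the 6 libraries, each centred on its own mean. For Podxl, outside the rule and after its values were seen, the search took genes with a mean of at least 1 CPM. Rbpms, an RNA-binding protein gene, came first (difference 0.471), at 8.71, 0.785 and 18.7 CPM among the LSK-derived libraries and no higher than 0.234 CPM among the GMP-derived ones. Mycn, a MYC family gene, followed (0.568), and then Homer2, a scaffold protein gene (0.608). For the 4 tested members, among 8287 genes with a mean of at least 10 CPM, the nearest profiles were Lrrc45 (0.0555) and Dedd2 (0.0703) for Selplg, and Psen2 (0.0835) and Igfbp4 (0.0916) for Cd44. Those nearest to Spn were Slc16a13 (0.0506) and Pcgf5 (0.0738), and those nearest to Fut7 were Lypla2 (0.0460) and Fry (0.0515). These differences describe 6 libraries in 2 groups, which many genes separate in the same way.

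**Figure D3:**
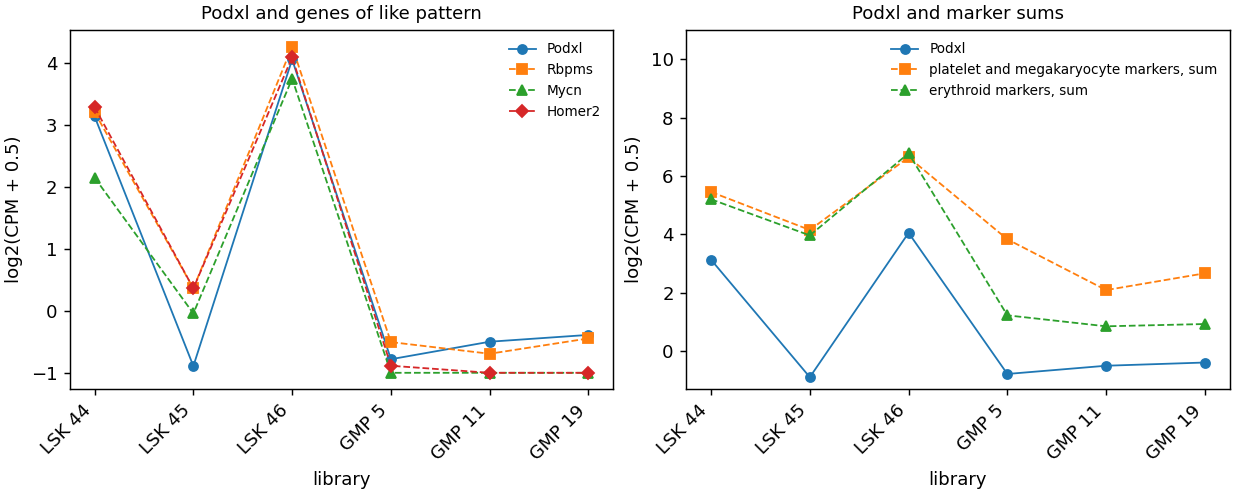
Podxl in each library (x axis) as log2(CPM + 0.5) (y axis), beside the 3 genes of nearest pattern (left) and the summed platelet and megakaryocyte and erythroid markers (right); lines only join the points of a series. In each series LSK 46 is highest and LSK 45 is the lowest of the LSK-derived libraries.

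RefSeq promoter sequence on build GRCm38.p6 was at hand for 3 members, Fut7, Cd44 and Spn. The 250 bases before the start site are shown because Cd44 and Spn were called as higher in the LSK-derived libraries while Fut7 lay on the other side of 0. The counts themselves were made on another build, mm9, and no count is tied to these coordinates. Capitals mark the letters of 6 short motifs, searched on both strands: the GC box GGGCGG, the PU.1 motif GAGGAA, the GATA motif AGATAA, the RUNX motif TGTGGT, the C/EBP motif TTGCGCAA and the TATA box TATAAA. No capitals overlap between motifs in these windows, and the motifs were chosen with the sequences in view. The windows are Fut7 at chr2:25422992-25423241 (plus strand), Cd44 at chr2:102901666-102901915 (minus strand) and Spn at chr7:127137824-127138073 (minus strand), each written 5′ to 3′ along its gene.
Fut7: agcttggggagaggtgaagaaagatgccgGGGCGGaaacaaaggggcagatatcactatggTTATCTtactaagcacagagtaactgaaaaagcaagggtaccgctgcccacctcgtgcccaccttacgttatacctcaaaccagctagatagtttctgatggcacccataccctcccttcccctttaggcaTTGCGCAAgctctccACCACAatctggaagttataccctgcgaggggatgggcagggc
Cd44: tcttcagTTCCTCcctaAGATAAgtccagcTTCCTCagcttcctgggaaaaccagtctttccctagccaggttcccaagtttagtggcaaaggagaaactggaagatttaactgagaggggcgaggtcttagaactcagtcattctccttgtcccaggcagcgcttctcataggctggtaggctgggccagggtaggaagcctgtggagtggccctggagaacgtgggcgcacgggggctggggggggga
Spn: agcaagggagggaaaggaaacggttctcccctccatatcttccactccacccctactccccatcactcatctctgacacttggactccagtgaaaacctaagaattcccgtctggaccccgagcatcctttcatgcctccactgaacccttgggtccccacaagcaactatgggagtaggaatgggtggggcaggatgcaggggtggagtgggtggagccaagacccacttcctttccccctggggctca
In the Fut7 window the C/EBP motif began 58 bases before the start site, and it was found in 0.164% of 32851 promoter windows of the same length. The same window held a GC box (in 32.7% of all windows), a GATA motif on the other strand (9.99%) and a RUNX motif on the other strand (14.0%). The Cd44 window held the PU.1 motif 2 times on the other strand (23.3% of all windows) and a GATA motif. None of the 6 motifs stood in the Spn window. A second RefSeq start of Fut7 has the window chr2:25423444-25423693 (not printed), in which a PU.1 motif 105 bases before the start was the only match. A match is a description of these letters and shows no binding.

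Other genes of the pathway were taken from 8 lists, chosen with earlier results of these data known. Over these lists of ligand synthesis, anchoring and homing, 25 of 93 tested genes were higher in the LSK-derived leukaemias, 14 were higher in the GMP-derived ones and 54 did not pass. The share called was 41.9%, against 25.7% of all tested genes (11.8% higher in the LSK-derived group, 13.9% in the GMP-derived group). Of the 39 called genes, 20 kept the call in each fit that left out 1 library, 11 of them higher in the LSK-derived libraries. Only the LSK-derived group met the low-count filter for Sele, Selp, St6gal1, Chst2 and Ccr7, and only the GMP-derived group for Chst1 and Stab2. These genes were tested because a single group was high, so their places in the counts are no support of their own. The median log2 fold change of the 93 genes was 0.10, against 0.01 for all tested genes.

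**Figure D4:**
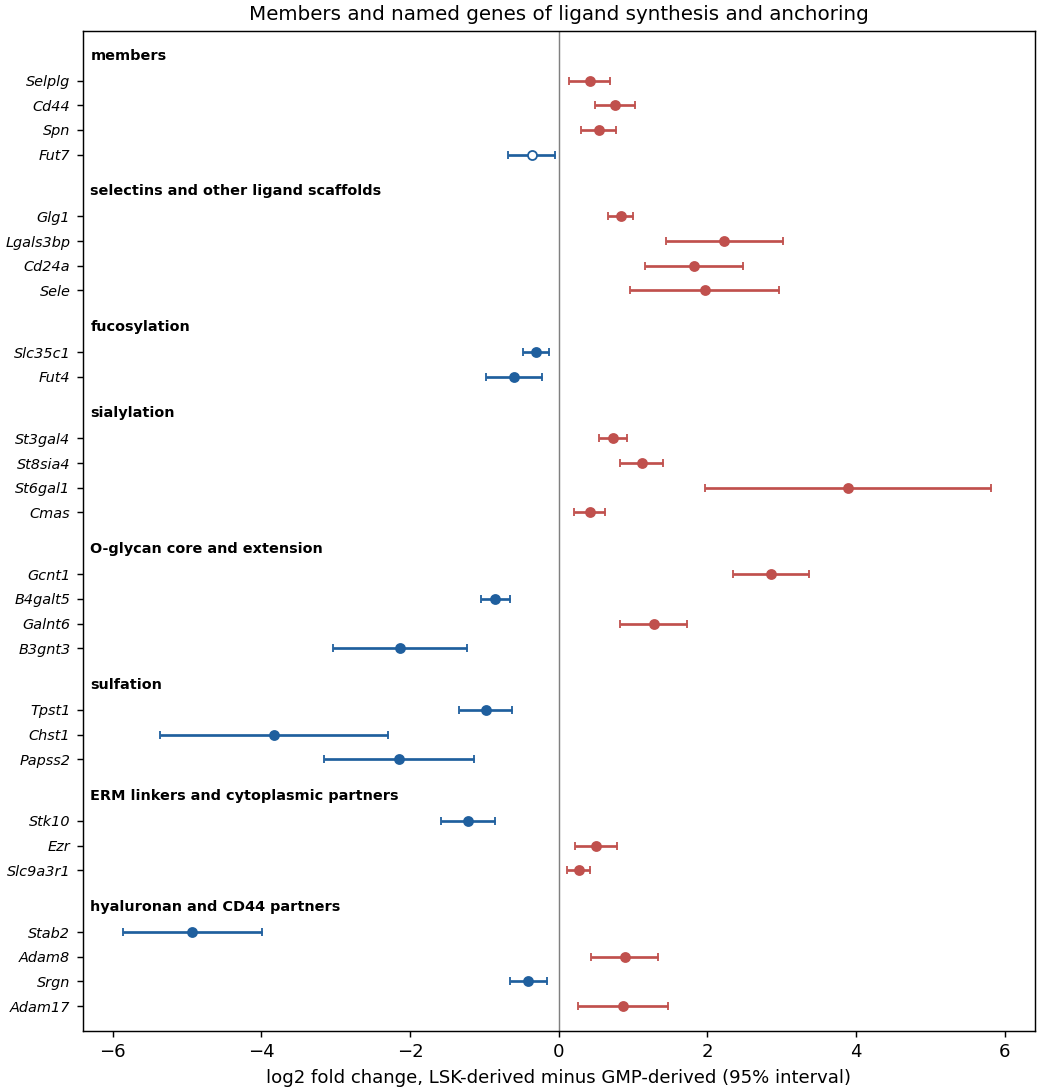
Log2 fold change, LSK-derived minus GMP-derived (x axis), with its 95% interval, of the tested members and the named genes of 7 lists (y axis), filled where called. The named scaffold and sialylation genes lie right of 0, the named fucosylation genes and the drawn sulfation genes left of it, and the other lists hold genes on both sides. Chst2, a named sulfation gene with a log2 fold change of 5.54, is not drawn.

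Among the selectins and other ligand scaffolds, 6 of 7 tested genes were higher in the LSK-derived libraries and none was higher in the GMP-derived ones, with a median log2 fold change of 1.56. The share called was 85.7%, against 25.7% of all tested genes (11.8% higher in the LSK-derived group). Glg1 encodes ESL-1, an E-selectin ligand of myeloid cells. It was at 345, 377 and 391 CPM across the LSK-derived libraries, and at 203, 216 and 207 CPM across the GMP-derived ones (log2 fold change 0.83 ± 0.07 (SE), adjusted p = 0.000773). Cd24a encodes CD24, a small mucin-like P-selectin ligand, and was at 346, 346 and 508 CPM against 75.0, 142 and 123 CPM in the same order of libraries (log2 fold change 1.82 ± 0.27 (SE), adjusted p = 0.00620). Lgals3bp, which encodes a secreted galectin-3 binding glycoprotein, was at 50.8 ± 12.4 CPM against 10.8 ± 4.33 CPM (SD, n = 3 each; adjusted p = 0.00571). These 3 genes kept their calls without any 1 library.

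The genes of E- and P-selectin were called with less margin. Sele, the E-selectin gene, and Selp, the P-selectin gene, were at 1.09 ± 0.126 and 0.819 ± 0.100 CPM in the LSK-derived and 0.267 ± 0.160 and 0.280 ± 0.140 CPM in the GMP-derived libraries (SD, n = 3). Sele (adjusted p = 0.0171) lost its call without LSK 44 (0.0642), LSK 46 (0.0514) or GMP 11 (0.0606). Selp (adjusted p = 0.0382) lost its call in all 6 fits without a library (0.0506 to 0.108) and in DESeq2 (0.0869). Sele and Selp met the low-count filter only through the LSK-derived group. Cd34, the stem cell sialomucin gene, was at 181 ± 17.7 and 150 ± 108 CPM (SD, n = 3) and did not pass, except without GMP 5 (adjusted p = 0.0285). Without LSK 44, LSK 46 or GMP 11 the count of called genes in this list was 3. Emcn, Glycam1 and Madcam1, which encode mucin-like molecules of endothelium, had 0 counts in all libraries, so each could have had up to 3 counts, or 0.180 CPM in the smallest library.

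Among the named glycan genes, core 2 branching held the smallest p. Gcnt1 encodes the core 2 enzyme that starts the branch carrying sialyl Lewis x on PSGL-1 and CD43. It was at 42.7 CPM in LSK 44, 45.5 CPM in LSK 45 and 49.5 CPM in LSK 46, and at 8.69 CPM in GMP 5, 5.17 CPM in GMP 11 and 5.28 CPM in GMP 19. The lowest LSK-derived library was far above the highest GMP-derived one, and the difference was 7.24-fold (log2 fold change 2.85 ± 0.22 (SE), adjusted p = 0.000611). C1galt1, the core 1 enzyme gene that provides the substrate, was at 22.4, 18.6 and 28.3 CPM against 25.5, 28.8 and 27.7 CPM in the same order and did not pass (adjusted p = 0.293). Gcnt4, another core 2 enzyme gene, did not pass (78.0 ± 31.4 against 73.6 ± 6.66 CPM, SD, n = 3; adjusted p = 0.845), and Gcnt3 had 0 counts.

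The list of O-glycan start, core and extension held 20 tested genes, whose enzymes need not act on O-glycans alone. Of these genes, 5 were higher in the LSK-derived libraries and 2 in the GMP-derived ones, and 13 did not pass. The share called was 35.0%, against 25.7% of all tested genes, and the median log2 fold change was 0.02. Galnt6, which encodes an enzyme that starts mucin-type O-glycans, was at 239 ± 19.9 against 98.5 ± 26.9 CPM (SD, n = 3; log2 fold change 1.28, adjusted p = 0.00537). The lower genes were B3gnt3, which encodes an enzyme that extends core 1 glycans (1.96 ± 0.512 against 8.64 ± 3.50 CPM, SD, n = 3; adjusted p = 0.00902), and B4galt5, a galactosyltransferase gene (57.2 ± 2.71 against 103 ± 8.38 CPM, SD, n = 3; adjusted p = 0.00115). Galnt3, Galnt10 and B3gnt5 were the other higher genes. Calls were lost as follows: Galnt3 without LSK 44 (0.0939), LSK 45 (0.0741), GMP 11 (0.0757) or GMP 19 (0.0501), Galnt10 without LSK 46 (0.0633) or GMP 11 (0.0503), and B3gnt5 without LSK 44 (0.0874), LSK 45 (0.0805), LSK 46 (0.102) or GMP 19 (0.118) and with no filter (0.107). B3gnt5 had a log2 fold change of 2.44, and of 3.31 without GMP 11. Without LSK 44, LSK 45 or LSK 46 the count of higher genes was 3.

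Of 11 tested sialylation genes, 6 were higher in the LSK-derived libraries, only St3gal3 was lower and 4 were not called (median log2 fold change 0.73). The share called was 63.6%, against 25.7% of all tested genes (11.8% higher in the LSK-derived group). St3gal4 encodes a main sialyltransferase of selectin ligands in mouse leukocytes. It was at 76.4, 81.6 and 72.0 CPM across the LSK-derived libraries and at 49.3, 44.2 and 45.4 CPM across the GMP-derived ones, with no overlap (log2 fold change 0.73 ± 0.08 (SE), adjusted p = 0.00180). St8sia4, which encodes a polysialyltransferase, was at 374 ± 65.4 against 173 ± 6.76 CPM (SD, n = 3; adjusted p = 0.00181), and Cmas, which encodes the enzyme that activates sialic acid, at 72.7 ± 7.71 against 54.6 ± 0.178 CPM (SD, n = 3; adjusted p = 0.0165). These 3 kept their calls without any 1 library. St6gal1, an alpha-2,6 sialyltransferase gene, was under 1 CPM in every library, with 4 counts in the GMP-derived group (log2 fold change 3.88, or 3.30 without GMP 11 and 7.12 without GMP 19; adjusted p = 0.0154, or 0.0596 without LSK 46). St6gal1 met the low-count filter only through the LSK-derived libraries. The other higher genes were St3gal1 and St3gal5. St3gal1, at 50.2 ± 20.8 against 19.1 ± 3.38 CPM (SD, n = 3), lost its call without GMP 11 (0.0679) or GMP 19 (0.0583) and with no filter (0.0546), and St3gal5 lost it without LSK 44 (0.0563), LSK 46 (0.0534) or GMP 19 (0.0543). The lower gene, St3gal3, lost its call without LSK 46 (0.0765) or GMP 19 (0.0637). St3gal6, which encodes another sialyltransferase of selectin ligands, had at most 17 counts in a library and was not tested.

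**Figure D5:**
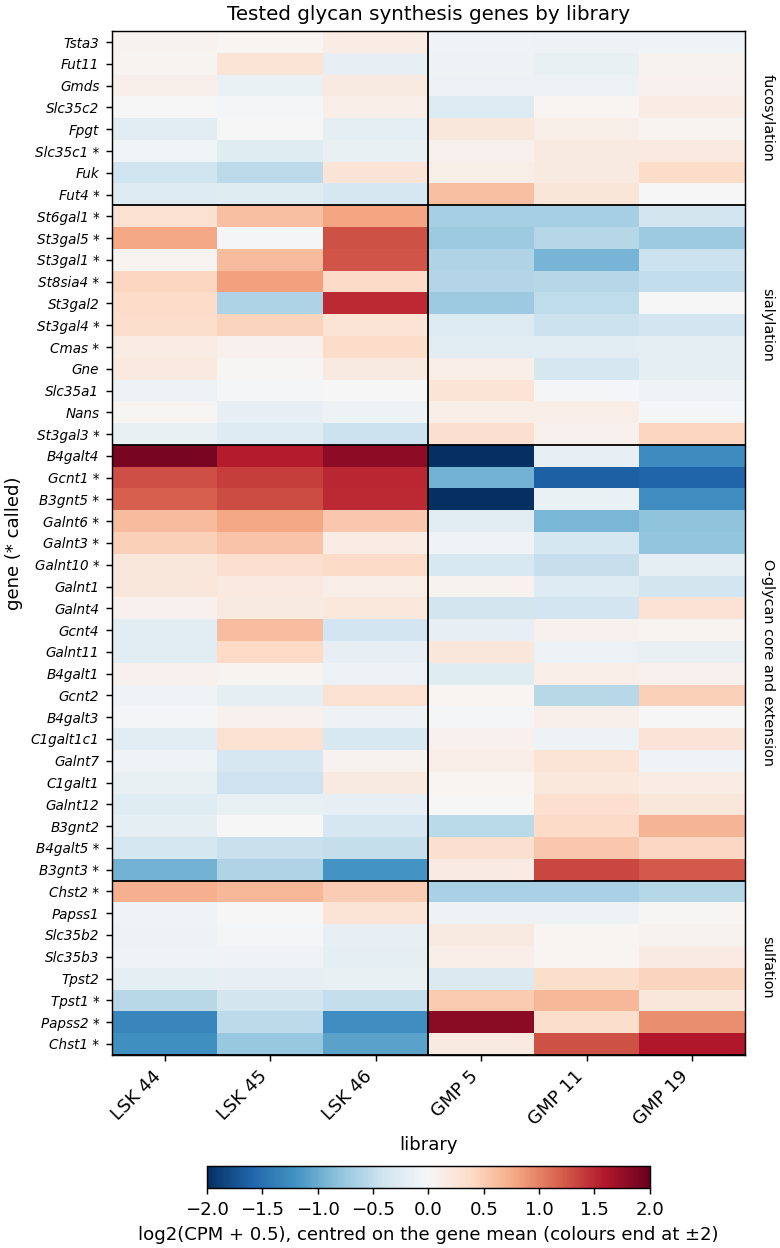
Log2(CPM + 0.5), centred on each gene's mean, of the tested fucosylation, sialylation, O-glycan and sulfation genes (rows, * where called) in the 6 libraries (columns); red is above and blue below the gene's mean. Gcnt1, Galnt6, St3gal4 and St8sia4 are red in the 3 LSK-derived columns, and Tpst1, Papss2 and Chst1 are blue there.

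Of 8 other fucosylation genes tested, none was higher in the LSK-derived libraries, 2 were higher in the GMP-derived ones and 6 did not pass, with a median log2 fold change of -0.11. The share called, 25%, was near the 25.7% of all tested genes, and Fut11, Gmds, Tsta3 and Slc35c2 had log2 fold changes above 0, from 0.05 to 0.18. Fut4 encodes the other fucosyltransferase of leukocyte selectin ligands, and was at 15.5, 15.7 and 14.7 CPM across the LSK-derived libraries and at 28.5, 22.3 and 18.8 CPM across the GMP-derived ones (log2 fold change -0.60 ± 0.16 (SE), adjusted p = 0.0325). Slc35c1, which encodes the Golgi GDP-fucose transporter, was at 105 ± 6.76 against 129 ± 5.55 CPM (SD, n = 3; adjusted p = 0.0240). Fut4 lost its call without LSK 44 (0.0958), LSK 45 (0.0671), LSK 46 (0.109) or GMP 11 (0.0686) and in limma voom (0.0520), and Slc35c1 lost it without LSK 45 (0.0657), LSK 46 (0.0849), GMP 11 (0.0696) or GMP 19 (0.0706). The count of called genes was 0 without LSK 45 or GMP 11, and 1 without LSK 44, LSK 46 or GMP 19. Fut9, which encodes a related fucosyltransferase, had 0 counts in all libraries.

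Of 8 tested sulfation genes, 3 were lower in the LSK-derived libraries, 1 was higher there and 4 were not called (median log2 fold change -0.30). The share called was 50.0%, against 25.7% of all tested genes. Tpst1 encodes a tyrosine sulfotransferase, the kind of enzyme that sulfates the N terminus of PSGL-1. It was at 7.62, 8.75 and 8.12 CPM across the LSK-derived libraries and at 16.7, 18.4 and 13.5 CPM across the GMP-derived ones (log2 fold change -0.99 ± 0.15 (SE), adjusted p = 0.00510). Tpst2, its paralogue, was at 24.1 ± 0.400 and 31.2 ± 7.88 CPM (SD, n = 3) and did not pass (adjusted p = 0.180), except without GMP 5 (0.00736). Papss2, which encodes a synthase of the sulfate donor, was at 20.7 ± 6.82 against 92.1 ± 47.4 CPM (SD, n = 3; log2 fold change -2.15, adjusted p = 0.0144), a call lost without LSK 44 (0.0627) or LSK 46 (0.0653) and with no filter (0.0525). The 2 carbohydrate sulfotransferase genes that were called were both low and went opposite ways. Chst1 was at 0.153 ± 0.110 against 2.37 ± 1.27 CPM (SD, n = 3; log2 fold change -3.83, or -4.55 without LSK 45; adjusted p = 0.00742). Chst2 was at 0.786, 0.746 and 0.625 CPM across the LSK-derived libraries and had 1 count in the GMP-derived group, a ratio of 66.3 with a counting interval from 11.9 to 2617 (adjusted p = 0.00195). Chst1 met the low-count filter only through the GMP-derived libraries and Chst2 only through the LSK-derived ones, so their adjusted p-values are descriptive.

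ERM proteins and their partners tie these receptors to actin. Of 12 tested genes of this list, 2 were higher in the LSK-derived libraries and 1 in the GMP-derived ones, and 9 did not pass (median log2 fold change 0.06). The share called, 25%, was near the 25.7% of all tested genes. Ezr, the ezrin gene, was at 152 ± 11.3 against 107 ± 15.6 CPM (SD, n = 3; adjusted p = 0.0222), and Slc9a3r1, which encodes the NHERF1 scaffold that binds podocalyxin, at 105 ± 5.92 against 87.3 ± 0.426 CPM (SD, n = 3; adjusted p = 0.0257). Msn, the moesin gene, was at 626 ± 3.29 and 583 ± 16.2 CPM (SD, n = 3) and did not pass (adjusted p = 0.223). Stk10, which encodes a kinase that phosphorylates ERM proteins in lymphocytes, was 2.33-fold lower (52.7 ± 3.16 against 123 ± 26.8 CPM, SD, n = 3; adjusted p = 0.00279). Ezr lost its call without LSK 44 (0.0817), LSK 46 (0.0757) or GMP 19 (0.0626), and Slc9a3r1 without LSK 45 (0.0543), LSK 46 (0.0966), GMP 11 (0.0741) or GMP 19 (0.0551). The count of higher genes was 0 without LSK 46 and 1 without LSK 44, LSK 45, GMP 11 or GMP 19, and the count of lower genes was 2 without GMP 5 or GMP 11.

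Of 13 tested hyaluronan genes and partners of CD44, 2 were higher in the LSK-derived group, 2 were lower and 9 were not called (median log2 fold change 0.21). The share called, 30.8%, was near the 25.7% of all tested genes. The lower genes were Stab2, which encodes a scavenger receptor for hyaluronan, and Srgn, which encodes serglycin, a granule proteoglycan and CD44 ligand. Stab2 had 2, 4 and 1 counts across the LSK-derived libraries and was at 3.07, 3.15 and 3.90 CPM across the GMP-derived ones (log2 fold change -4.93 ± 0.40 (SE), adjusted p = 0.000657). It met the low-count filter only through the GMP-derived libraries. Srgn was at 692 ± 55.0 against 920.4 ± 112 CPM (SD, n = 3; adjusted p = 0.0296; lost without LSK 44 at 0.0848 and without LSK 46 at 0.109). The higher genes were the sheddase genes Adam8 and Adam17. Adam17 was at 297, 506 and 318 CPM against 260, 177 and 180 CPM (adjusted p = 0.0494), a call lost in 5 fits without a library (LSK 44, 0.0656; LSK 45, 0.0729; LSK 46, 0.0833; GMP 11, 0.130; GMP 19, 0.154) and with no filter (0.109). Adam8 (adjusted p = 0.0170) lost its call without LSK 44 (0.0535) or LSK 46 (0.0606). The count of higher genes was 0 without LSK 44 or LSK 46 and 1 without GMP 11, and that of lower genes was 1 without LSK 44 or LSK 46. Hyaluronan synthase genes were nearly silent: Has2 had 0 counts, Has1 had 1 count in all, and Has3 had at most 22 counts in a library.

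Of 14 tested genes of other homing receptors and their partners (integrins, chemokine and lipid receptors, CD47 and tetraspanins), 3 were higher and 3 lower in the LSK-derived libraries, and 8 did not pass. The share called was 42.9%, against 25.7% of all tested genes. The alpha-4 integrin gene Itga4 (705 ± 144 against 256 ± 43.2 CPM, SD, n = 3) and the beta-7 gene Itgb7 (64.5 ± 13.9 against 19.7 ± 1.24 CPM) were higher, and the beta-2 pair Itgal (56.9 ± 6.97 against 120 ± 15.5 CPM) and Itgb2 (132 ± 15.0 against 469 ± 85.7 CPM) was lower, with adjusted p-values of at most 0.00298. Ccr7, a chemokine receptor gene (higher), and Cd82, a tetraspanin gene (lower), were the remaining called genes. Ccr7 lost its call without LSK 44 (0.136), LSK 45 (0.0671), LSK 46 (0.0862), GMP 11 (0.0661) or GMP 19 (0.0911). It met the low-count filter only through the LSK-derived group. Cxcr4, the receptor gene for the marrow chemokine CXCL12, was at 129, 121 and 115 CPM across the LSK-derived libraries and at 125, 165 and 197 CPM across the GMP-derived ones. The groups overlapped and it did not pass (adjusted p = 0.101), but was called in DESeq2 (0.0450), in limma voom with sample weights (0.0433) and without GMP 5 (0.0138).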

How the data were processed

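TRIzol RNA was turned into TruSeq libraries, per the labels' protocols. The deposited file holds the authors' read counts for each gene, unnormalized. The submitters' processing notes name STAR 2.4, HTSeq 0.6.1, DESeq2 and mm9; annotation and strand setting: not given in the sources used here. No member's exons overlap another gene in GENCODE M21. Those of Adam8, Adam17, Cd34, Has3, Itga4, St3gal4 and St3gal6 overlap a tested gene on the opposite strand, whose reads may be included.

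The 6 libraries (3 per group, by title) were compared with edgeR 4.0.16 in R 4.3.3: filterByExpr, TMM, robust glmQLFit and glmQLFTest, no covariates. CPM are TMM-scaled. Each SE is the size of the log2 fold change over the root of F, from which the 95% interval was taken. Alternatives were DESeq2 1.42.0, RLE and upper-quartile scaling, no filter, limma 3.58.1 voom with and without sample weights, and leaving out each library. The fit was tested on simulated data with the same spread for every gene. It called 72% of 2-fold changes and 99% of 4-fold changes. Smaller changes, such as those of the tested members, were not simulated.

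The members and lists were chosen with earlier results of these data known. Named were the members, up to 4 called genes per list by smallest p, genes with 0 counts and the 2 nearest profiles per tested member (mean of at least 10 CPM); other genes were named after their values were seen. Transcript lengths came from GENCODE M21 (GRCm38). Protein sequences were not used here. Some results of these lists are not reported here.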

Additional observations from a re-analysis of the deposited data

How the results depend on the processing

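Cd44 and Spn kept direction and call under all 12 alternatives, and Fut7 kept its direction and stayed uncalled (adjusted p 0.0595 to 0.224). Leaving out 1 library moved the log2 fold change of Selplg between 0.32 and 0.52, with its call lost in 5 of 6 such fits. It moved the count of called genes over the whole table from 3444 to between 1750 and 3467 (1577 higher in LSK-derived to between 770 and 1523, 1867 higher in GMP-derived to between 973 and 1944), the lowest total without LSK 46 and 1830 without LSK 44. The same fits gave between 3 and 5 higher genes among selectins and other scaffolds, between 0 and 2 lower fucosylation genes, between 0 and 1 lower sialylation genes and between 3 and 7 higher O-glycan genes. For the linkers they gave between 0 and 2 higher and between 1 and 2 lower genes, and for the CD44 partners between 0 and 3 higher and between 1 and 3 lower genes. Other settings moved 6 counts: limma voom gave 1 lower fucosylation gene, limma voom with sample weights 2 lower linker genes, and DESeq2 4 higher and 3 lower linker genes and 5 higher and 4 lower CD44 partners. Of 348 alternative fits of 29 named list genes, 315 kept the call, 33 lost it and 0 reversed. These 29 were the called genes of smallest p in each list, so these fits do not describe the other called genes. Of all 39 called list genes, 20 kept the call in each fit that left out 1 library. The cause of lost calls was not tested. Podxl was under the low-count filter with DESeq2, both other scalings and limma voom, so these gave no test of it. No paired analysis was possible because the groups share no replicate number. Depth limits genes such as Chst2 and St6gal1, as 3 counts are 0.0885 to 0.180 CPM. For Podxl this holds only in LSK 45 and the GMP-derived libraries, since it had 137 counts in LSK 44 and 387 in LSK 46.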
